A study of Mus musculus with 10 samples.

Results

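The 7 genes described here, Mbp, Mobp, Mal, Cldn11, Ermn, Ugt8a and Fa2h, encode proteins of mature myelin in the central nervous system, and they are 7 of 19505 genes measured. Probe sets were chosen by symbol and, for each gene, by the highest mean log2 signal over the 10 arrays. Each gene had 1 probe set, so that choice removed nothing. The 7 genes were proposed with earlier results of these data known, so their values are a description, and each adjusted p below comes from a fit across many genes and not from the 7 alone. The study compared hypothalamic messenger RNA of male mice of the inbred C57BL/6J strain, with 5 samples labelled Old (138 weeks of age) and 5 labelled Young (24 weeks of age). The labels name no treatment, transgene or mutation in either group. Nothing in them states that the samples came from different animals, and the p-values therefore cover only the spread among these samples, which may be technical. Each sample was run on 1 Clariom S Mouse array, a 1-colour array that reads each transcript with a probe set.

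Myelin is the stack of membrane that an oligodendrocyte wraps around an axon, and it speeds conduction of the nerve impulse. Its membrane is rich in lipid, above all cholesterol and galactosylceramide, and is held in register by a small set of abundant proteins. In the hypothalamus, myelinated fibres run through and beside neuron groups that release peptides, and oligodendrocytes live among them. Of the 7 genes, 5 are structural. Mbp encodes myelin basic protein, which holds the inner faces of compact myelin together, and Mobp encodes a second small basic protein of compact myelin. Mal encodes a membrane proteolipid of lipid-rich domains, Cldn11 the claudin of the tight junctions between myelin wraps, and Ermn the actin-binding protein ermin of late oligodendrocytes. The other 2 act in lipid synthesis. Ugt8a encodes the transferase that adds galactose to ceramide, and Fa2h the hydroxylase that makes the 2-hydroxylated fatty acids of myelin galactolipids.

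RefSeq (GRCm38.p6) gave the 250 bases before the start of 5 of the 7 genes. The windows of Mobp and Ermn, higher in Old, and of Cldn11 and Ugt8a, lower in Old, are shown because the age differences of these genes had opposite signs. Capitals mark CTTTGT or its reverse complement ACAAAG, the core recognised by SOX factors, and GGGCGG or CCGCCC, the GC box, searched on both strands with overlapping copies counted. The windows are chr9:120149492-120149741 (plus strand) for Mobp, chr2:58052865-58053114 (minus strand) for Ermn, chr3:31149670-31149919 (plus strand) for Cldn11 and chr3:125938653-125938902 (minus strand) for Ugt8a.
Mobp: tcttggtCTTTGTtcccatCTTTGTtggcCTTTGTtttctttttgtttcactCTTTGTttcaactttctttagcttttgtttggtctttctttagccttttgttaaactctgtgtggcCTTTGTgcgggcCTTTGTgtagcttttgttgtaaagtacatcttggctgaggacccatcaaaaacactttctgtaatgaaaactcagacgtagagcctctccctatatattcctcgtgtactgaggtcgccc
Ermn: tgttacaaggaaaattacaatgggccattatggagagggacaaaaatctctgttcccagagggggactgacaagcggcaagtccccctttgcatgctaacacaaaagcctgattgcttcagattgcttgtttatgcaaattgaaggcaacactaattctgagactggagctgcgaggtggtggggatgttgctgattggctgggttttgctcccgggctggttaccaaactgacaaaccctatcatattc
Cldn11: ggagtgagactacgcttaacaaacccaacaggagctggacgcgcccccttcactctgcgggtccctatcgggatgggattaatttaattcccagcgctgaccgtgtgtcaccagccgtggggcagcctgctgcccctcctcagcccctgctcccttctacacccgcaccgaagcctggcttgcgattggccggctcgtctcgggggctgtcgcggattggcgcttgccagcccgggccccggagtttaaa
Ugt8a: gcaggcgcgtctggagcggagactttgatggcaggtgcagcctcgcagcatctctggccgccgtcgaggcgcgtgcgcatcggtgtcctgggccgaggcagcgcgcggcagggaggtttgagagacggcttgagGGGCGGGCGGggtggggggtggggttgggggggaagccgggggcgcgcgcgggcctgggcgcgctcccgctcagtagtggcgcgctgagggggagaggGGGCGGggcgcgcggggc

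The Mobp window held 6 copies of the SOX core, a number that it alone reached of the 32851 windows of the same length (1 window, 0.00304%), whereas 16.5% of windows held at least 1. The windows of Ermn, Cldn11, Ugt8a and Mal held 0 copies. The Ugt8a window held 3 GC boxes, 2 of them overlapping, and 8.47% of windows held as many; 32.7% held at least 1. The other 4 windows held 0. The share of G and C was 40.8% in the Mobp window and 47.2% in that of Ermn. It was 63.6% in that of Cldn11 and 76.8% in that of Ugt8a, and the median over all windows was 52.4%. The window of Mal, a gene lower in Old, lay below this median, as did those of Mobp and Ermn. A link between this share and the direction of the age difference was not tested. These matches describe the letters of the windows and are not measured binding sites.

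The values are deposited log2 signals, 1 per probe set and array. Their range of 5.002 to 12.972 fits array signal in base 2, which the file does not name, so the folds assume that base. Of the 22206 probe sets deposited, 97.9% share 1 very small spread over the 10 arrays (an SD of 1e-05 log2, within 1%), so their values cannot show a difference between ages. The fit to all 19505 genes called 43 of them (0.22%) at an adjusted p under 0.05 (limma, Benjamini-Hochberg). All 7 myelin genes were among the 276 genes (1.42%) that varied, with an SD of at least 0.01 log2, and in a fit to these varying genes alone 99 (35.9%) were called. Choosing genes by their spread favours those that differ between ages, so 35.9% is the share against which the myelin genes are read. Transcripts known from other tissues set 2 Young arrays apart. Young 5 had the choroid plexus transcript Ttr at 12.44 log2, where the other arrays had 6.90 to 7.97, and in Young 3 the liver transcript Mup2 stood at 7.35 log2 (at most 6.39 elsewhere) and albumin, Alb, at 6.87 (at most 6.34 elsewhere). Results are therefore also given without these arrays.

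Over the 7 myelin genes, 3 were higher and 4 lower in the Old hypothalamus, all by less than 0.25 log2. Mbp, Mobp and Ermn were higher by 0.08, 0.10 and 0.14 log2, or 1.06-fold to 1.10-fold. Cldn11, Fa2h, Ugt8a and Mal were at -0.24, -0.21, -0.10 and -0.05 log2, or 0.846-fold to 0.969-fold. In the fit to all genes 0 of the 7 passed (0.22% of all genes did), with 5 at an unadjusted p under 0.05, as were 51.8% of the varying genes. In the varying genes alone Cldn11 and Fa2h fell and 0 rose. These 2 of 7 (28.6%) are a share near the 35.9% called among all varying genes, so the count is no result about the myelin genes. The median difference of the 7 was -0.045 log2, beside -0.019 over all varying genes, and the median size of the difference was 0.102 beside 0.114 log2. In such bulk tissue a difference in RNA per cell and a difference in the number of oligodendrocytes cannot be told apart.

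**Figure D1:**
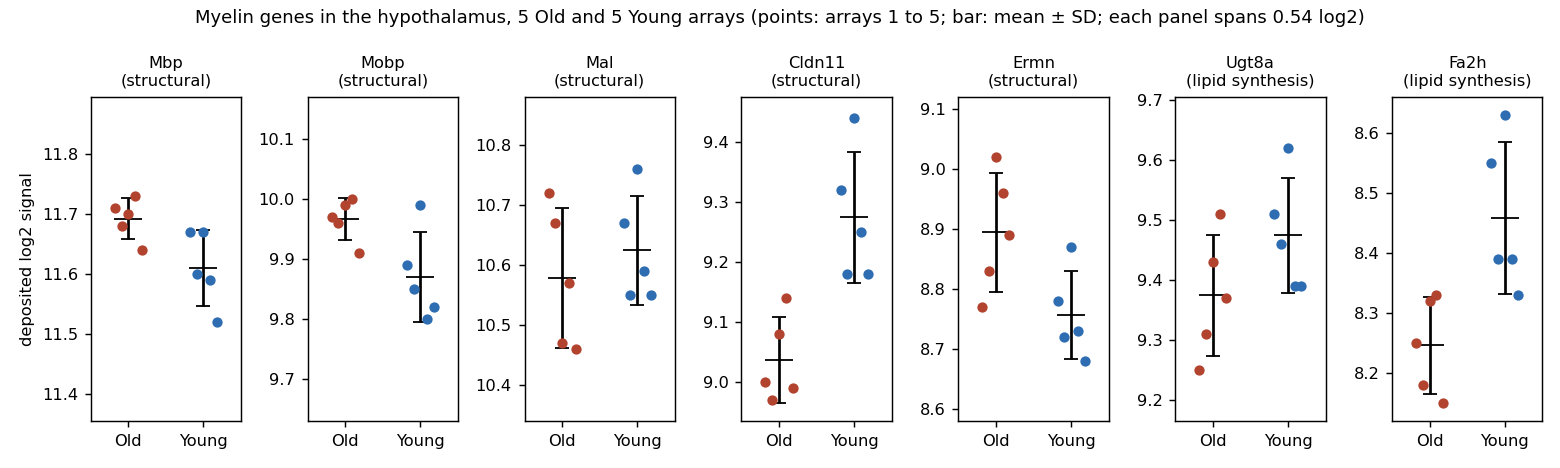
Deposited log2 signal (y axis, each panel spanning 0.54 log2) of the 7 myelin genes in the 5 Old arrays (red, left) and the 5 Young arrays (blue, right), with points for arrays 1 to 5 from left to right in each group and a bar for the mean ± SD. Only for Cldn11 do the groups not overlap; the Old arrays lie at 8.97 to 9.14 and the Young arrays at 9.18 to 9.44.

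Among the structural genes, Mbp had 11.71, 11.68, 11.70, 11.73 and 11.64 log2 in Old 1 to Old 5, and 11.67, 11.60, 11.67, 11.59 and 11.52 in Young 1 to Young 5. Of the 5 Old arrays 4 lay above every Young array, and Old 5 lay among them. The means were 11.69 ± 0.036 in Old and 11.61 ± 0.063 in Young (SD, n = 5 each), a difference of 0.08 (SE 0.03; adjusted p = 0.65 over all genes and 0.0793 over varying genes, limma).

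Mobp, the second basic protein, had 9.972, 9.964, 9.994, 9.998 and 9.909 log2 in Old 1 to Old 5, and 9.887, 9.852, 9.988, 9.801 and 9.817 in Young 1 to Young 5. Young 3 alone reached the Old values. The means were 9.97 ± 0.035 in Old and 9.87 ± 0.074 in Young, a difference of 0.10 (SE 0.035; adjusted p = 0.65 and 0.0674 over varying genes). Without Young 3 the difference was 0.13, and Mobp rose in the varying genes alone (adjusted p = 0.0121). Over the 10 fits that leave out 1 array each, that adjusted p ran from 0.0121 to 0.151, and only the fit without Young 3 made the call.

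Ermn, the cytoskeletal gene, had 8.77, 8.83, 9.02, 8.96 and 8.89 log2 in Old 1 to Old 5, and 8.78, 8.72, 8.87, 8.73 and 8.68 in Young 1 to Young 5. Old 3, Old 4 and Old 5 lay above all Young arrays, while Old 1 lay below Young 1 and Young 3. The difference was 0.14 (SE 0.051, 1.10-fold; adjusted p = 0.678 and 0.0674 over varying genes). Ermn rose in the varying genes alone without Young 3 (0.16 log2, adjusted p = 0.0428) or without Old 1 (0.17 log2, adjusted p = 0.031). It did not pass without any of the other 8 arrays, with adjusted p of 0.0715 to 0.132.

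Cldn11, the tight junction gene, ran the other way. It had 9.0, 8.97, 9.08, 9.14 and 8.99 log2 in Old 1 to Old 5, and 9.32, 9.18, 9.44, 9.25 and 9.18 in Young 1 to Young 5. Every Old array lay below every Young array, as in 7.25% of varying genes, where groups that did not overlap in either direction made up 27.9%. The means were 9.04 ± 0.073 in Old and 9.28 ± 0.11 in Young, a difference of -0.24 (SE 0.055, 95% interval -0.37 to -0.12; adjusted p = 0.264 over all genes and 0.00828 over varying genes). The exact permutation test (2-sided) over all labellings of the 10 arrays gave p = 0.00794, the smallest that 5 against 5 allows. Any gene whose groups do not overlap gets this p, so it adds nothing to the lack of overlap. The same test gave 0.0159 for Fa2h, 0.0317 for Mbp, 0.0397 for Mobp and for Ermn, 0.159 for Ugt8a and 0.5 for Mal. Cldn11 fell in the varying genes alone whichever single array was left out (adjusted p from 0.00723 to 0.0236, differences from -0.27 to -0.20), and also without Young 3 and Young 5 together (-0.22, adjusted p = 0.0167).

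Mal, the proteolipid gene, had 10.72, 10.67, 10.47, 10.57 and 10.46 log2 in Old 1 to Old 5, and 10.67, 10.55, 10.76, 10.59 and 10.55 in Young 1 to Young 5. Old 1 and Old 2 stood at the top of the Old group and Old 3 and Old 5 below every Young array, so the Old arrays spread across the Young range and beyond it. The difference was -0.05 (SE 0.063, 95% interval -0.19 to 0.10; adjusted p = 0.949 and 0.598 over varying genes), and the interval leaves room for a change of either sign.

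Of the lipid-synthesis genes, Fa2h had 8.25, 8.18, 8.32, 8.33 and 8.15 log2 in Old 1 to Old 5, and 8.55, 8.39, 8.63, 8.39 and 8.33 in Young 1 to Young 5. The groups met at Old 4 and Young 5, and 4 of 5 Old arrays lay below every Young array. The means were 8.25 ± 0.083 in Old and 8.46 ± 0.13 in Young, a difference of -0.21 (SE 0.064, 0.865-fold; adjusted p = 0.525 over all genes and 0.0302 over varying genes). The call in the varying genes was lost without Young 1 (adjusted p = 0.0704), Young 3 (0.0559), Old 1 (0.0544), Old 2 (0.0646) or Old 5 (0.0671), with differences of -0.17 to -0.21. The adjusted p was 0.0164 to 0.0416 when any of the other 5 arrays was left out, and the call held. Without Young 3 and Young 5 together it was -0.20 (adjusted p = 0.0435).

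Ugt8a, which acts beside Fa2h on the way to galactosylceramide, had 9.25, 9.31, 9.43, 9.51 and 9.37 log2 in Old 1 to Old 5, and 9.51, 9.46, 9.62, 9.39 and 9.39 in Young 1 to Young 5. Old 1, Old 2 and Old 5 lay below every Young array, and Old 4 as high as Young 1. The difference was -0.10 (SE 0.059, 95% interval -0.23 to 0.03; adjusted p = 0.829 and 0.203 over varying genes), and it passed in none of the fits that left out 1 array.

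**Figure D2:**
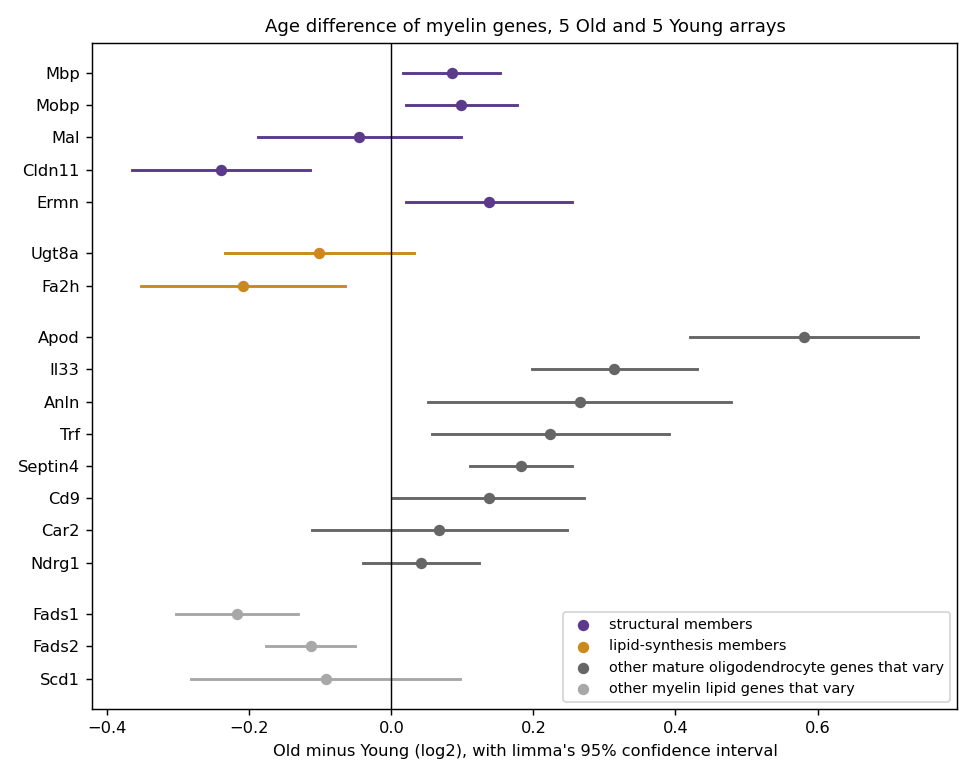
Old minus Young difference in log2 units (x axis, points) with limma's 95% confidence interval (lines) for the 5 structural and 2 lipid-synthesis myelin genes and for the other mature oligodendrocyte genes and myelin lipid genes that varied. Mbp, Mobp and Ermn lie to the right of 0 with the 8 other oligodendrocyte genes. Cldn11, Mal, Ugt8a and Fa2h lie to the left with Fads1, Fads2 and Scd1. The intervals of Mal, Ugt8a, Scd1, Car2 and Ndrg1 include 0.

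To contrast the roles, each gene was set to 0 at its Young mean and averaged by role in each array. The 2 lipid-synthesis genes averaged -0.21, -0.22, -0.09, -0.05 and -0.21 log2 in Old 1 to Old 5, and 0.06, -0.04, 0.16, -0.07 and -0.11 in Young 1 to Young 5. The 5 structural genes averaged 0.01 ± 0.039 in Old against 0.00 ± 0.079 in Young (SD, n = 5 each). Structural minus lipid synthesis was 0.22, 0.22, 0.11, 0.10 and 0.16 in Old 1 to Old 5, and -0.02, 0.00, -0.04, 0.04 and 0.03 in Young 1 to Young 5. The groups did not overlap on this measure, at 0.16 ± 0.058 in Old against 0.00 ± 0.034 in Young. The genes of both roles share array deviations, which the subtraction takes out in part. In Young the SD of the difference, 0.034, was below that of the structural (0.079) and lipid-synthesis (0.11) genes. In Old, at 0.058, it was below that of the lipid-synthesis genes (0.083) but above that of the structural genes (0.039). Nothing further is read from the lack of overlap. As a score over genes chosen with results known, the contrast was given no test. Leaving out 1 array gave 0.15 to 0.18.

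The roles did not divide the genes cleanly, because Cldn11 is structural and lay with the lipid-synthesis genes. Without Cldn11 the contrast was 0.22 log2 (0.15 to 0.30 in the Old arrays, -0.05 to 0.04 in the Young arrays). Without Fa2h it was 0.11 and without Ugt8a 0.22, so the size depends on which lipid gene stands for the role. Grouping by direction instead, which was chosen after the values were seen, Mbp, Mobp and Ermn minus Cldn11, Ugt8a and Fa2h gave 0.31, 0.33, 0.28, 0.23 and 0.30 in Old 1 to Old 5 and -0.02, 0.04, -0.07, 0.02 and 0.03 in Young 1 to Young 5. The choice fixes that direction, and it supports nothing further.

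**Figure D3:**
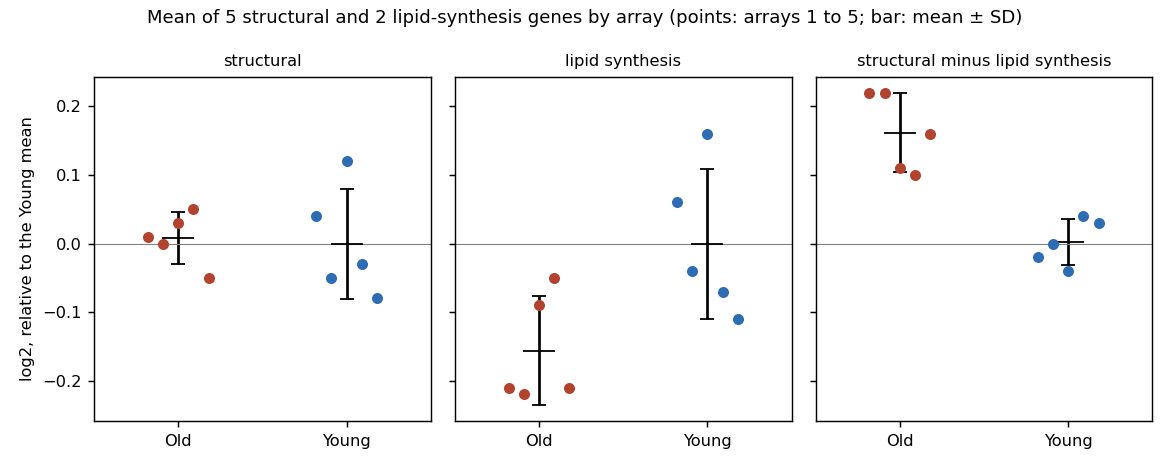
Mean of the 5 structural genes, of the 2 lipid-synthesis genes, and their difference (y axes, log2 relative to the Young mean) in the 5 Old arrays (red, left) and 5 Young arrays (blue, right), with points for arrays and bars for the mean ± SD. The difference lies at 0.10 to 0.22 in the Old arrays and at -0.04 to 0.04 in the Young arrays, while each role's own values overlap between the groups. Taking the difference removes part of the array deviations that the roles share.

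Much of the spread within an age group was shared by the genes. Young 3 was the highest Young array for 6 of the 7 genes and Young 5 the lowest for 6, and Old 4 was the highest Old array for 5. Taking each gene's deviation from its own age group's mean, the 15 pairs that leave out Mal had Pearson correlations of 0.52 to 0.94 over the 10 arrays (median 0.79), with the highest for Cldn11 and Fa2h. The 6 pairs with Mal had -0.16 (with Ermn) to 0.58 (with Mbp and Mobp). These correlations share the same arrays and RNA samples and are given as a description. Mal stood 0.15 and 0.09 log2 above its group mean in Old 1 and Old 2, where Ermn stood at -0.13 and -0.06.

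**Figure D4:**
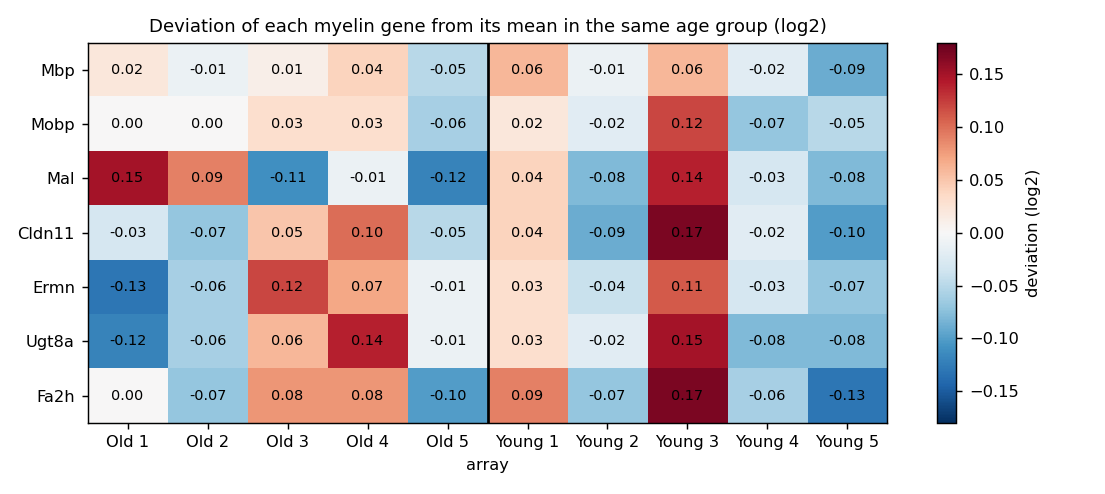
Deviation in log2 of each of the 7 myelin genes (rows) from its own mean in the same age group, for Old 1 to Old 5 and Young 1 to Young 5 (columns; red above, blue below, values printed). All 7 genes are above their mean in Young 3, by 0.06 to 0.17, and below it in Young 5, by 0.05 to 0.13. Mal and Ermn have opposite signs in Old 1, Old 2, Old 3 and Old 4.

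Setting each gene against the mean of the other 6 in the same array takes out this shared part. Cldn11 then stood at -0.25, -0.28, -0.22, -0.19 and -0.23 log2 in Old 1 to Old 5, against -0.06 to 0.04 in the Young arrays, and its SD was 0.035 in Old and 0.038 in Young. Ermn stood at 0.08, 0.17, 0.31, 0.21 and 0.26 in Old 1 to Old 5, against -0.02 to 0.02 in the Young arrays. On this scale the groups did not overlap for 5 genes, with Mbp, Mobp and Ermn higher and Cldn11 and Fa2h lower in Old, while Mal and Ugt8a overlapped. Among the 269 other varying genes, set against the mean of the 7, 22.7% did not overlap. That share is no like background, because the myelin genes share array deviations that the subtraction takes out, so nothing is read from the count of 5. The 7 values are tied to each other, since a fall of 1 gene raises the others on this scale. They describe how the genes stood to each other in these arrays and do not show which of them changed. The genes were chosen with results known, so nothing further is read from these values.

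**Figure D5:**
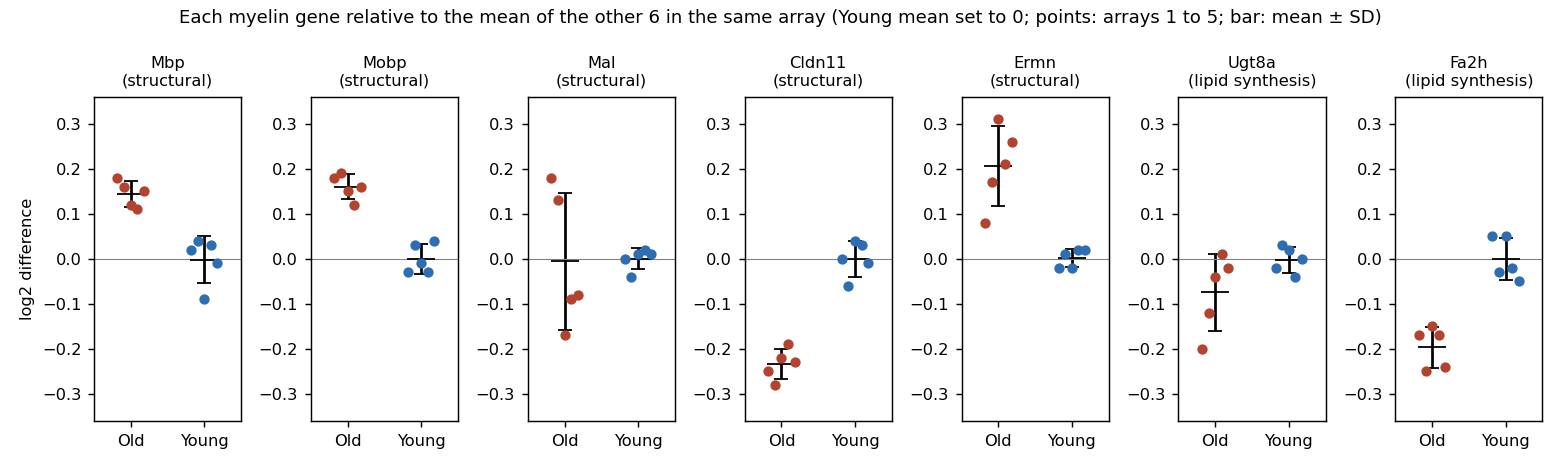
Each myelin gene relative to the mean of the other 6 in the same array (y axis, log2, Young mean set to 0) in the 5 Old arrays (red, left) and 5 Young arrays (blue, right), with points for arrays and bars for the mean ± SD. Mbp, Mobp and Ermn lie above and Cldn11 and Fa2h below all Young arrays in every Old array, while Mal in Old spreads from -0.17 to 0.18.

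Among 43 other genes of myelin and mature oligodendrocytes, 40 were measured and 8 varied. All 8 were higher in Old, as were 47.5% of varying genes. The fit to all genes called 1 of them, and the fit to the varying genes called 5, where 24.6% of genes rose. Apod, a lipid carrier, rose by 0.58 log2 (SE 0.071, 1.5-fold; adjusted p = 0.0125 over all genes). In the varying genes alone Il33, an alarmin found in oligodendrocyte nuclei, rose by 0.31 (adjusted p = 0.00148), Anln, a septin scaffold, by 0.27 (0.0499), Trf, the iron carrier transferrin, by 0.22 (0.0397) and Septin4, a septin of myelin, by 0.18 (0.00305). Cd9, a tetraspanin (0.14), Car2, a carbonic anhydrase (0.07), and Ndrg1 (0.04) did not pass. The other 32 did not vary, among them Mag, Mog, Cnp and Opalin, at 8.03, 8.44, 9.88 and 7.97 log2, with an SD of 1e-05 log2, in which a change with age could not be seen. Of the 32, 27 had that SD (within 1%), and the highest was that of Hapln2, 0.0014 log2, whose difference was 0.0025 log2.

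Of 27 further genes of myelin lipids, 24 were measured and 3 varied, all lower in Old (52.5% of varying genes were). Fads1 and Fads2, desaturases of polyunsaturated fatty acids, fell in the varying genes alone, where 11.2% fell, by 0.22 and 0.11 log2 (adjusted p = 0.00266 and 0.0218). Scd1, which makes monounsaturated fatty acids, was at -0.09 (adjusted p = 0.396). That difference leaned on Old 1, at 9.74 log2, where the other Old arrays had 10.03 to 10.23 and the Young arrays 10.1 to 10.23. None of the 3 genes passed over all genes. Gal3st1, which turns galactosylceramide into sulfatide, Cers2, the synthase of very long chain ceramides, and Aspa, which frees acetate for lipid synthesis, did not vary, nor did any of 18 measured genes of cholesterol synthesis. Of 11 measured transcription factors of the lineage 1 varied, Tcf7l2, at -0.18 (adjusted p = 0.331), and Sox10 and Myrf, activators of myelin genes, did not vary. The lipid, cholesterol and lineage genes that did not vary had an SD under 0.01 log2 as deposited. A change with age could not be seen in them, so they are not shown to be level. Of 13 measured precursor genes Bcas1, a gene of early myelinating cells, rose by 0.47 (adjusted p = 0.00481 over all genes), and Gpr17, a receptor of immature oligodendrocytes, fell by 0.20 in the varying genes alone (adjusted p = 0.00353).

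The genes whose deviations were most like the mean deviation of the 7, among 269 other varying genes, were Trf and Dbndd2 (Pearson r = 0.95 each over 10 arrays), Mup19 (0.87), Mup9 (0.86) and Mup22 (0.86). Without Young 3 and Old 4, the arrays farthest from the median, r was 0.90 for Trf, 0.92 for Dbndd2, 0.79 for Mup19, 0.75 for Mup9 and 0.77 for Mup22, over 8 arrays. Spearman's rho over 10 arrays was 0.93, 0.90, 0.93, 0.71 and 0.84 in the same order. These 5 were picked for their likeness, so the correlations carry no test. The Mup genes encode major urinary proteins, made mainly in the liver, and are similar in sequence. Mup19 stood at 6.78 log2 in Young 3 and at 5.27 to 5.87 in the other 9 arrays. Young 3 was the array in which 6 of the 7 myelin genes were the highest of the Young group. The part of that array's other-tissue RNA in the myelin values was not tested. Without Young 3 the differences were -0.01 log2 for Mal, -0.06 for Ugt8a, -0.17 for Fa2h and -0.20 for Cldn11, beside -0.05, -0.10, -0.21 and -0.24 with it. Those of Mbp, Mobp and Ermn were 0.10, 0.13 and 0.16 without it, beside 0.08, 0.10 and 0.14.

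Markers of other cell types were described in the same way. None of 12 neuron, 6 endothelium or 3 Schwann cell markers measured varied. Markers that did not vary, here and below, had an SD under 0.01 log2 as deposited. A change with age could not be seen in them, so they do not show level amounts of these cells. Of 8 astrocyte markers 4 varied. Gfap rose by 0.44 (adjusted p = 0.0396 over all genes), and Gja1 fell by 0.14 in the varying genes alone (adjusted p = 0.0353). Aldoc at 0.06 and Slc1a2 at 0.00 did not pass. The mean over those 4 ran from 10.43 to 10.53 in Old and from 10.35 to 10.42 in Young. Of 7 microglia markers C1qa varied, and it rose by 0.34 in the varying genes alone (adjusted p = 0.00146). The 7 varying choroid plexus markers averaged 6.57 to 6.72 in Old and 6.56 to 8.55 in Young, the highest in Young 5. Their differences were -1.13 for Ttr, -0.48 for Kcnj13, -0.40 for Kl, -0.36 for Folr1, -0.26 for Kcne2, -0.13 for Otx2 and 0.07 for Clic6, and 0 passed in either fit. The 4 varying striatum markers averaged 7.76 to 8.28 in Old and 7.83 to 8.29 in Young, with differences of -0.09 for Drd1, -0.06 for Ppp1r1b, -0.03 for Penk and -0.02 for Drd2. The part of these cells in the myelin values was not tested. Of 14 hypothalamus markers measured 7 varied. Of these, 1 rose and 1 fell in the varying genes alone, where 35.9% of all varying genes were called. The count is therefore no result about these markers. In the varying genes alone Avp, the gene of vasopressin, rose by 0.62 log2 (9.38 to 9.96 in Old and 8.82 to 9.28 in Young; adjusted p = 0.00353), and Sst, the gene of somatostatin, fell by 0.16 (adjusted p = 0.0272). Npy (0.20), Pmch (0.07), Hdc (0.01), Trh (-0.04) and Hcrt (-0.09) did not pass, nor did any hypothalamus marker over all genes. Pmch stood at 10.39 log2 in Old and 10.32 in Young, and Hcrt at 8.99 in Old and 9.08 in Young.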

How the data were processed

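Messenger RNA of 10 hypothalamus samples was labelled from 100 ng of total RNA and hybridised to Clariom S Mouse arrays, per the labels' protocols. The deposited log2 values give each probe set 1 value on each array. How the authors corrected, normalized and summarised the signal was not given in the sources used here. Detection calls were not used. Array medians lay between 6.778 and 6.783 log2. Precision is limited by the number of arrays.

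Of 22206 probe sets, 19572 have 1 gene symbol in the platform annotation, 0 have several and 2634 are unnamed here. All 19572 gene identifiers matched RefSeq (GRCm38.p6) and 0 symbols changed. The brightest probe set per gene left 19505 genes. Old was compared with Young by limma (version 3.58.1, R 4.3.3; lmFit and eBayes, 2-sided, Benjamini-Hochberg, threshold 0.05) on all genes, and again on the 276 genes with an SD of at least 0.01 log2. "Rose" and "fell" refer to the fit named. The prior SD was 7e-06 log2 over all genes and 0.0686 over varying genes. The procedure was tested on simulated data.

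The myelin genes and gene lists were chosen with earlier results of these data known. Named genes are the 7 members, up to 8 varying genes of each other list by size of difference, and the 5 most alike in deviation; genes named as not varying, and Mup2 and Alb, were chosen after their values were seen. Lists covered myelin, lipid, cholesterol, lineage, precursor, neuron, astrocyte, microglia, endothelium, choroid plexus, striatum, Schwann cell and hypothalamus genes. Alternatives were other normalizations, filters, variance priors, probe set rules, arrays left out and a replicate block.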

Additional observations from a re-analysis of the deposited data

Results flagged for a closer look

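In 116 groups of 5 arrays, the highest and the lowest array were set against the nearest other array of the group (Dixon's ratio of that gap to the group's range, critical value 0.71), and in 12 groups 1 array stood apart. For independent groups of genes not picked by their values, chance gives about 1 in 20, or 5.8. These groups share arrays, and some genes were named after their values were seen, so 5.8 is no yardstick for the 12. None of the 12 was among the 30 groups of the myelin genes and their contrasts, where the highest ratio was 0.701.

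Of the choroid plexus markers, Young 5 stood above the nearest Young array for 6 genes, namely Ttr (12.44 log2, nearest 7.97), Kcnj13 (8.85, nearest 6.35), Kl (8.5, nearest 6.67), Folr1 (7.74, nearest 6.52), Kcne2 (6.89, nearest 5.8) and Clic6 (8.33, nearest 7.69). Young 5 also had the highest Young value of Gfap (9.13, nearest 8.9). Young 3 stood above the other Young arrays for Alb (6.87, nearest 6.17) and below them for Gja1 (10.1, nearest 10.17). In Old, Old 1 was lowest for Fads1 (9.17, nearest 9.31), Old 2 highest for Aldoc (11.86, nearest 11.74) and Old 2 lowest for Mup9 (5.35, nearest 5.4).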

How the results depend on the processing

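Of 34 alternatives, 9 left the differences of the myelin genes as they were and the others gave 13 distinct sets of them, mostly by leaving out arrays. All 7 genes kept their sign in these 13, with ranges of 0.06 to 0.10 log2 for Mbp, 0.08 to 0.13 for Mobp, 0.11 to 0.17 for Ermn, -0.27 to -0.20 for Cldn11, -0.24 to -0.17 for Fa2h, -0.14 to -0.06 for Ugt8a and -0.08 to -0.01 for Mal. In the fit to all genes 0 myelin genes passed, also with the replicate block, without any single array and without Young 3 and Young 5. Median centring also passed 0, with differences close to the main ones. Its adjusted p over all genes was lower, at 0.0521 for Mbp, Mobp, Cldn11, Ermn and Fa2h, 0.0783 for Ugt8a and 0.429 for Mal. The adjusted p over all genes thus depends strongly on small shifts of the arrays. Quantile normalization gave 1 higher (Mobp, adjusted p = 0.046) and 2 lower (Cldn11, 0.0141, and Fa2h, 0.0332), but it called 154 genes higher and 6464 lower, where the values as deposited gave 37 and 6. The varying genes alone gave 0 and 2 myelin genes and 68 and 31 genes, and the genes at or above an SD of 0.05 gave 0 and 2 myelin genes and 65 and 28 genes. A trended robust prior called 10 genes lower. Without Young 3 and Young 5 there were 22 higher and 2 lower, and the replicate block gave 10 and 1, with the structural minus lipid contrast at 0.1624. Same-numbered samples did not deviate together (correlations from -0.219 to 0.281 over the varying genes), so the numbers were not taken as pairs. Single arrays left out gave 25 to 37 higher and 4 to 9 lower.

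Combinations with the varying genes alone were added after seeing the data. Leaving out single arrays gave 57 to 64 genes higher and 20 to 37 lower, and 0 to 2 myelin genes higher and 1 to 2 lower. Without Young 3 and Young 5 it gave 57 and 17 genes, and 1 and 2 myelin genes. With quantile normalization it gave 66 and 36 genes, and 0 and 2 myelin genes. With the replicate block it gave 58 and 21 genes, and 0 and 2 myelin genes. Fewer genes tested make these fits less strict by construction; the other causes were not tested.

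The contrast of roles, 0.16 log2, was 0.25 with medians in place of means, 0.22 without Cldn11, 0.22 without Ugt8a and 0.11 without Fa2h. It was 0.13 to 0.18 without Mbp, Mobp, Mal or Ermn. The cause lies in the members: Cldn11 lay with the lipid genes, and Ugt8a differed less than Fa2h. The deposited values of genes that do not vary limit what can be said of most myelin genes.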
